A study of Mus musculus with 30 samples.

Results

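The subject is a set of 35 genes of the lysosome, chosen by name, in brain endothelial cells of mice at 5 ages. They encode 7 membrane proteins, 6 peptidases, 10 glycosidases, 5 sulfatases, 5 proteins that break down or carry lipids, the secreted and lysosomal protein progranulin, and the transcription factor TFEB. Each symbol matched 1 of the 48795 genes in the files, and all 35 genes were among the 16844 that passed the filter on low counts. The lowest count of a member in any library was 75, for Galns. The libraries came from primary endothelial cells of the brain, taken from untreated wild-type (WT) mice aged 2, 6, 12, 18 and 24 months, with 3 male and 3 female libraries at each age and 30 in all. Strain, isolation method, and whether a library holds 1 mouse or a pool are not given in the sources used here, which call the libraries biological replicates. The question was whether these genes share a high level at 6 and 24 months.

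Lysosomes are acidic, membrane-bound compartments that degrade proteins, glycans, lipids and material delivered by endocytosis and autophagy. Most of their soluble enzymes are tagged in the Golgi with mannose phosphate and carried by receptors to endosomes, while the membrane proteins reach the lysosome by sorting signals of their own. TFEB and its relatives bind a DNA motif near the start of many lysosomal genes, the CLEAR element, and are held in the cytosol when the kinase complex mTORC1 is active at the lysosome. In brain endothelium, lysosomes receive cargo that is taken up from the blood and not carried across the cell.

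The inner part of the CLEAR element, TCACGTGA, contains the E-box CACGTG, and both read the same on the 2 strands. RefSeq promoter windows (GRCm38.p6, from 250 bases before to 50 bases after a gene's start) were at hand for 31 of the 35 members, in 35 windows; Npc1, Ctsb, Galns and Asah1 are named only. TCACGTGA was found in windows of 5 members, and 1.12% of the 27025 genes with a window had it (0.974% of 32851 windows). CACGTG was found in windows of 12 members, which include those 5, against 8.09% of genes. The 5 stretches below are printed because they hold the motif through which TFEB is known to act. They are written 5′ to 3′ on the strand of the gene, with TCACGTGA in capitals.
Ctsa: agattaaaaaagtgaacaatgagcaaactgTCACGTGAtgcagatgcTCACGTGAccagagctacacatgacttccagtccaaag
Cln3: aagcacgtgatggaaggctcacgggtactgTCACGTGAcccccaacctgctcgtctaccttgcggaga
Ctsd: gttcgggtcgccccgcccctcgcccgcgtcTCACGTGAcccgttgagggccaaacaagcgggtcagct
Mcoln1: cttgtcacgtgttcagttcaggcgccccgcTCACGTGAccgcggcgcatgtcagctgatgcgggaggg
Gla: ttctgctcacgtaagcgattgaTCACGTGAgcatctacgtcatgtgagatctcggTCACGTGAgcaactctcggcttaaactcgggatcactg

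The Ctsa stretch lies at chr2:164833730-164833814 on the + strand, with its matches 13 bases before and 4 bases after the start. The Cln3 stretch lies at chr7:126583321-126583388 on the - strand, with a match 122 bases before the start. The Ctsd stretch lies at chr7:142387889-142387956 on the - strand, with a match 99 bases before the start. The Mcoln1 stretch lies at chr8:3500443-3500510 on the + strand, with a match 46 bases before the start. The Gla stretch lies at chrX:134601163-134601255 on the - strand, with matches 228 and 195 bases before the start. Each start is that of the RefSeq window with the match, and Ctsa and Cln3 have 2 windows each. The Ctsa, Cln3 and Ctsd stretches lie inside the GENCODE spans of these genes, such as 126571207 to 126585817 for Cln3. A match describes the letters of the window and is not evidence that a factor binds there. The difference between 6 and 24 months and the other ages, described below, was 0.07 for Cln3, -0.01 for Mcoln1, -0.02 for Ctsa, 0.10 for Ctsd and 0.12 for Gla on the log2 scale, and none of these 5 passed the test.

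Gene counts per library ranged from 24140980 to 50464366. Summed levels of 8 endothelial markers such as Cldn5 and Pecam1 ranged from 15660 to 21290 CPM (counts scaled by library size, the usual CPM scale). Summed levels of 18 microglia markers ranged from 189.7 to 723.5 CPM in 29 libraries and reached 1757 CPM in 2-month male replicate 1. Their means were 594, 371, 242, 351 and 434 CPM at 2, 6, 12, 18 and 24 months, and of the 18 only Ptprc was at 0 in a library (1 library). Border macrophage markers summed to between 3.03 and 10.6 CPM. Markers of other cells moved with age too, and their part in the members' values was not tested. Erythroid markers summed to between 219.1 and 2731 CPM and choroid plexus markers to between 159.4 and 6970 CPM. Of 5 erythroid markers 4 were higher in the contrast of 6 and 24 months with the other ages, 5 rose from 2 to 6 months and 4 fell from 12 to 18 months. Of 5 choroid plexus markers 2 were lower in that contrast and 4 fell with age. Of 7 pericyte markers 3 rose with age, and of 8 endothelial markers 3 were lower in that contrast. Of 7 astrocyte markers 2 and of 8 endothelial markers 1 fell with age, and 1 of 5 smooth muscle markers rose. Of 18 microglia markers 0 passed in that contrast or with age. Over all genes tested 2.75% were higher and 2.92% lower in that contrast, and 5.72% rose and 5.22% fell with age. From 2 to 6 months 4.07% of genes rose, and from 12 to 18 months 6.73% fell. Microglia are rich in lysosomes, and in libraries made from many cells RNA of such cells, fewer cells of a type and less RNA per cell cannot be told apart. Library make-up also varied with age. Reads outside genes made up 10.35 ± 2.13% (SD, n = 6) at 18 months and 5.06 to 7.19% on average at the other ages. Genes with more than 3935 bases of merged exon (the median), here called longer genes, took 45.87, 44.27 and 47.62% of counts in the 3 female libraries of 6 months and 46.58% in 12-month male replicate 1, the 4 lowest values of all, and up to 61.1% at 18 months. The labels state that 6 of the libraries were read as single ends on another instrument, without saying which, so instrument and age cannot be told apart.

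Between-gene levels were compared per kilobase of merged exon. The members' median was 21 CPM per kilobase against 2.97 over all genes tested. Laptm4a had the highest level at 655 CPM per kilobase, followed by Lamp1 at 267, Ctsd at 170, Ctsz at 148 and Ctsb at 95.1 CPM per kilobase. The lowest were Npc1 at 1.70, Galns at 2.14 and Sgsh at 2.5 CPM per kilobase. Npc1 moves cholesterol out of the lysosome, and Galns and Sgsh strip sulfate from glycosaminoglycans. Some members share exon sequence with another annotated gene, and the libraries do not keep strand: Ctsd shares 34.4% of its exon bases with Gm49369, Arsb 32.3% with Gm26527, Sgsh 21.6% with Card14 and Arsa 18.8% with C230037L18Rik. Reads over several genes were set aside, so reads in the shared bases may be missing from the counts and levels of these genes. Ctsl shares 26.8% of its exon bases with the antisense gene Gm47123, which is not among the genes counted. Reads from Gm47123 there could have been counted as Ctsl, which was not tested. A share of exon bases is not a share of counts.

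A high level at 6 and 24 months shared by the 35 genes was not found. The mean of 6 and 24 months was set against the mean of 2, 12 and 18 months on the log2 scale, with sex as a covariate (edgeR quasi-likelihood test, Benjamini-Hochberg adjustment over all genes tested, threshold 0.05). Laptm4a and Lipa were higher, no member was lower, and 33 members did not pass. Among all genes tested 5.67% passed, 2.75% as higher and 2.92% as lower. The members' median difference was 0.0378 against 0.00704 over all genes, and 22 of 35 differences were above 0. The 95% interval of the difference lay within -0.5 to 0.5 for 32 of the 35 members, and the outermost bounds over all 35 were -0.637 and 0.601. Both the step from 2 to 6 months and that from 18 to 24 months were upward and passed in 0 of 35 members and in 0.178% of genes.

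**Figure D1:**
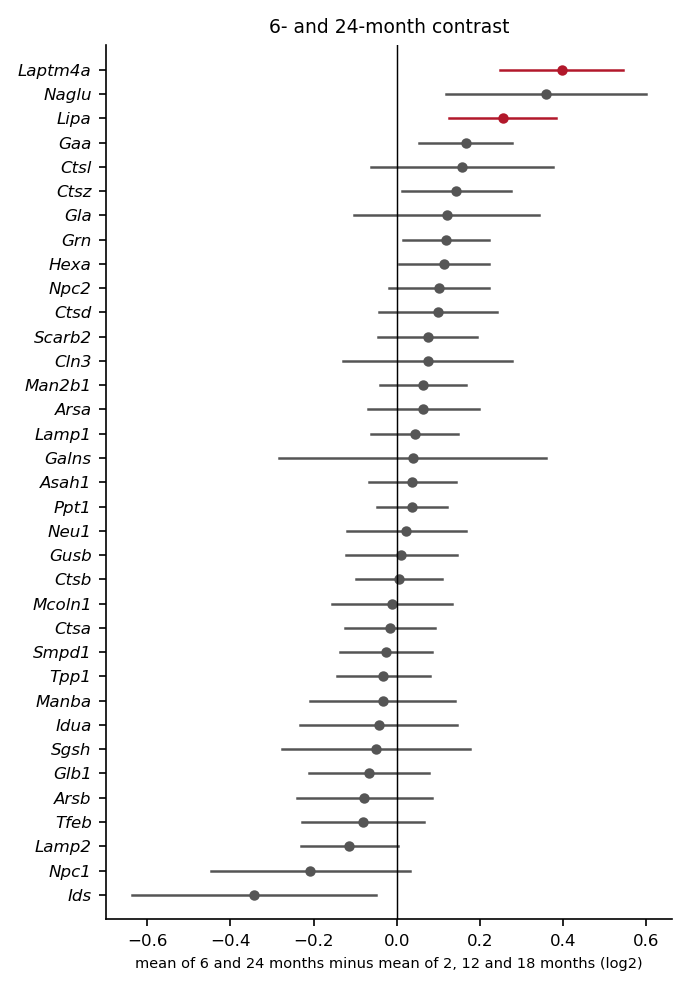
Difference between the mean of 6 and 24 months and the mean of 2, 12 and 18 months for each of the 35 genes (horizontal axis, log2), with points for the estimate, lines for the 95% interval and red for an adjusted p under 0.05. Laptm4a at 0.40 and Lipa at 0.25 are the 2 red points, and most intervals cross 0.

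The order of the age means is given as a description. The mean log2 CPM was higher at 6 than at both 2 and 12 months, and higher at 24 than at 18 months, in 7 of 35 members (Cln3, Laptm4a, Ctsl, Ctsz, Naglu, Npc2 and Lipa) and in 21.3% of genes. The highest 2 means were those of 6 and 24 months in 4 members and in 8.85% of genes. Counted apart, 17 of 35 members had their highest mean at 2 months (23.7% of genes) and 19, not always the same ones, their lowest at 18 months (24.4% of genes). The range of the 5 means was 0.366 on the log2 scale in the median member and 0.663 in the median gene. The widest range in the set was 0.862 and the narrowest 0.0635.

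**Figure D2:**
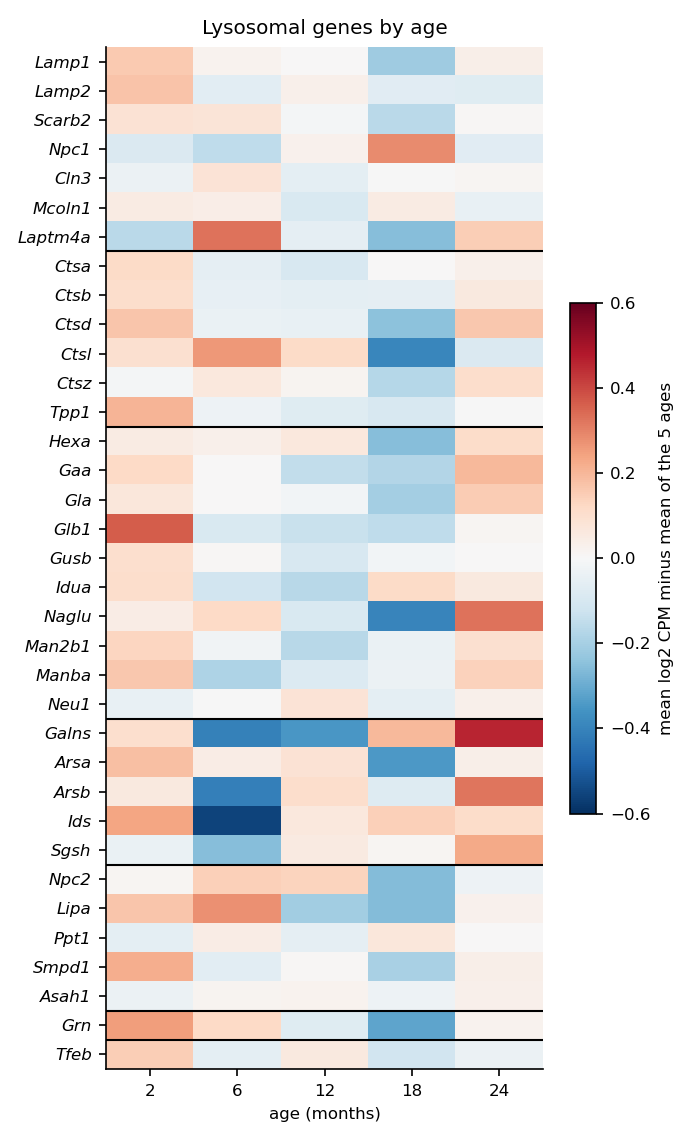
Mean log2 CPM at each age (columns, months) minus the mean of the 5 ages for the 35 genes (rows, with black lines between the roles), red above and blue below 0. The column of 18 months is blue for most rows and that of 2 months red for many, while few rows are red at both 6 and 24 months.

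Each library was also given a score, the mean over the 35 members of the z-scored log2 CPM. At 2 months it lay between 0.328 and 0.503. The 6-month libraries spanned -0.306 to 0.308, and every one of them was below every 2-month library. The 12-month libraries spanned -0.707 to 0.178. The 18-month libraries spanned -1.07 to 0.149, and the 24-month libraries -0.00753 to 0.762. The 3 female libraries of 18 months, at -1.07, -0.746 and -0.729, were the lowest of the 30. Reads outside genes were highest at 18 months as well.

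**Figure D3:**
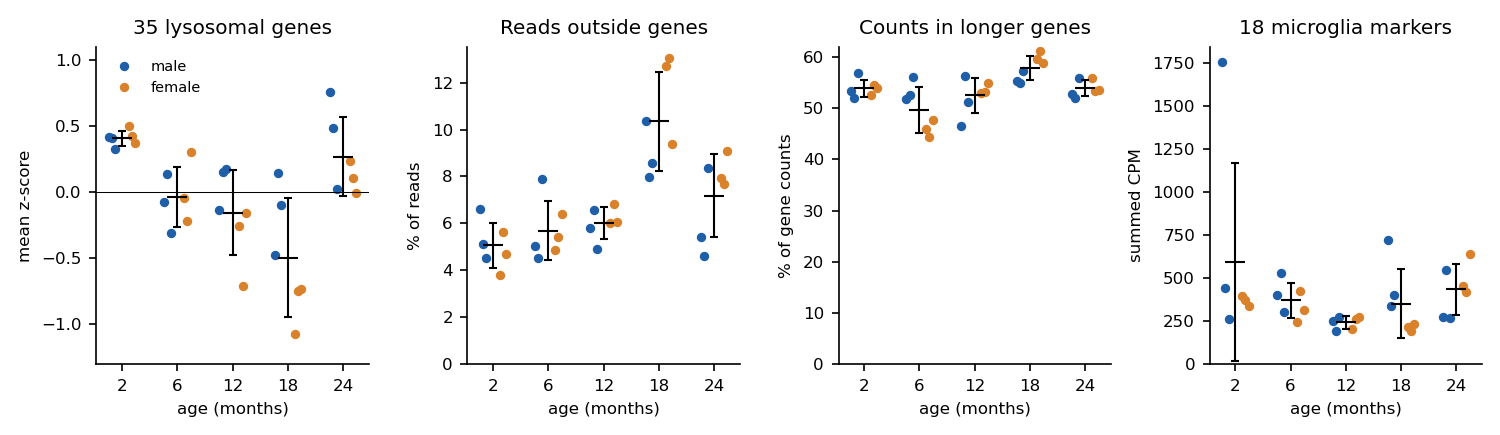
Mean z-score of the 35 lysosomal genes, reads outside genes (% of reads), counts in longer genes (% of gene counts) and summed microglia markers (CPM) in every library by age in months, males blue and females orange, with the mean and SD in black. The members' score starts between 0.328 and 0.503 at 2 months and is lowest at 18 months, where reads outside genes are highest.

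Among the membrane proteins, Laptm4a stood out. It encodes a protein with several membrane spans in late endosomes and lysosomes (ENSMUSG00000020585.4, chromosome 12, 8921664 to 8938742, GRCm38). Its lowest, median and highest library had 899, 1005 and 1162 CPM at 2 months and 1093, 1424 and 1781 CPM at 6 months. At 12 months these were 988, 1109 and 1280 CPM, at 18 months 732, 976 and 1180 CPM, and at 24 months 1114, 1232 and 1508 CPM. The medians of 6 and 24 months were above those of the other ages, and the ranges of neighbouring ages overlapped. The highest 12-month library, at 1280 CPM, was above the 24-month median of 1232 CPM. Laptm4a was higher at 6 and 24 months by 0.40 ± 0.07 (SE) on the log2 scale (edgeR, adjusted p = 9.33e-04). It rose by 0.50 ± 0.11 from 2 to 6 months (adjusted p = 0.00727), and the later steps of -0.38, -0.19 and 0.40 did not pass (adjusted p = 0.0731, 0.273 and 0.0686). The 3 female libraries of 6 months, at 1781, 1566 and 1476 CPM, were its highest of that age. Without them the contrast was 0.297 (adjusted p = 0.0753) and the step from 2 to 6 months 0.299 (adjusted p = 0.382). The contrast was 0.43 ± 0.09 within females and 0.35 ± 0.09 within males (edgeR, adjusted p = 0.00152 and 0.123).

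Lamp1, a heavily glycosylated protein that lines the inner face of the lysosomal membrane (ENSMUSG00000031447.7, chromosome 8, 13159161 to 13175338), was level by comparison. Its lowest, median and highest library had 709, 802 and 870 CPM at 2 months, 662, 732 and 790 CPM at 6 months, and 666, 703 and 771 CPM at 12 months. At 18 months they had 529, 604 and 712 CPM and at 24 months 666, 696 and 840 CPM. The ages overlapped throughout, with the lowest values at 18 months, and the contrast was 0.04 ± 0.05 (adjusted p = 0.69). Lamp2, the receptor of chaperone-mediated autophagy (ENSMUSG00000016534.15, chromosome X, 38401357 to 38456454), had 180, 204 and 215 CPM at 2 months, 150, 169 and 188 CPM at 6 months, and 157, 183 and 206 CPM at 12 months. At 18 months it had 143, 169 and 200.8 CPM and at 24 months 153, 165 and 196 CPM. Its contrast was -0.11 ± 0.06 (adjusted p = 0.253), and its values overlapped between all pairs of ages compared. Lamp2 passed as lower when the share of longer genes was a covariate, at -0.23 (adjusted p = 0.00142). The contrasts of the others were 0.07 for Scarb2, a glycoprotein that spans the lysosomal membrane, -0.21 for the cholesterol exporter Npc1, 0.07 for the Batten disease protein gene Cln3 and -0.01 for the calcium channel gene Mcoln1. None of these passed in any comparison of ages with both sexes together.

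The peptidases degrade proteins. Ctsd, an aspartic protease (ENSMUSG00000007891.16, chromosome 7, 142375911 to 142388038), had a lowest, median and highest library of 373, 433 and 601 CPM at 2 months, 317, 402 and 417 CPM at 6 months, and 334, 377 and 430 CPM at 12 months. At 18 months it had 277, 320 and 437 CPM and at 24 months 386, 445 and 475 CPM. The highest library, at 601 CPM, was 2-month male replicate 1, which had the most microglia marker RNA. The contrast was 0.10 ± 0.07 (adjusted p = 0.447) and 0.051 (adjusted p = 0.635) with the microglia marker score as a covariate, and the step from 18 to 24 months was 0.40 ± 0.11 (adjusted p = 0.0564). The cysteine cathepsin Ctsl and its relative Ctsz had contrasts of 0.16 and 0.14, Ctsb 0.01, the carboxypeptidase Ctsa -0.02 and the tripeptidyl peptidase Tpp1 -0.03, and no peptidase passed in any comparison of ages with both sexes together.

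The glycosidases remove sugars from glycans and glycolipids. Hexa, Gaa, Naglu and Glb1 passed in at least 1 step, and the share of all genes that did so was not counted. Between 18 and 24 months 4 members rose and none fell, of which 3 were glycosidases, while 1.26% of genes passed, 0.511% as higher and 0.748% as lower. Naglu, which trims heparan sulfate, rose by 0.72 ± 0.18 (adjusted p = 0.0465), Gaa, which degrades glycogen, by 0.37 ± 0.09 (adjusted p = 0.0262) and Hexa, a subunit of hexosaminidase, by 0.36 ± 0.08 (adjusted p = 0.025). These step values were singled out after they were seen. The Naglu libraries of 18 months spanned 24.8 to 38.1 CPM and those of 24 months 42.3 to 56.8 CPM. Those of Hexa ran from 85.3 to 111 CPM and from 114 to 136 CPM. For both genes every 24-month library was above every 18-month library, whereas Gaa overlapped, with 121 to 166 CPM at 18 and 164 to 208 CPM at 24 months. Over the whole set 29 of 35 members had a positive step here, with a median of 0.173 against 0.0159 over all genes. With the share of reads outside genes as a covariate, with the share of counts in longer genes as a covariate, or with no filter on low counts, 0 members passed this step, against 9 with DESeq2. The estimates stayed positive at those 3 settings, from 0.524 to 0.726 for Naglu, 0.305 to 0.378 for Gaa and 0.276 to 0.367 for Hexa. The share of all genes that passed under these alternatives is not given here, so the counts of 0 and 9 cannot be set beside it. Leaving out 1 library ended the call of Naglu in 15 of 30 fits and those of Hexa and Gaa in 6 each, every single 18-month female among them for all 3 genes. The share of reads outside genes was 10.35 ± 2.13% at 18 and 7.19 ± 1.76% at 24 months.

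Glb1, the beta-galactosidase used as a stain for senescent cells, went down early. Its lowest, median and highest library had 65.7, 75.6 and 89.0 CPM at 2 months and 48.9, 53.4 and 73.0 CPM at 6 months. It had 48.1, 51.6 and 64.5 CPM at 12 months, 42.2, 54.7 and 62.4 CPM at 18 months and 56.2, 58.4 and 65.6 CPM at 24 months. It fell by 0.45 ± 0.11 from 2 to 6 months (adjusted p = 0.0106) and was 0.36 ± 0.11 lower at 24 than at 2 months (log2 difference -0.36, adjusted p = 0.0367), where every library was below every 2-month library. The fall from 2 to 6 months was lost without 6-month female replicate 4, and the difference between 24 and 2 months was lost in 10 of the 30 fits that each left out 1 library. Glb1 was the only member to pass between 2 and 24 months, a comparison in which 8.35% of genes passed, 4.86% as higher and 3.48% as lower. The remaining glycosidases Gla, Gusb, Idua, Man2b1, Manba and Neu1 passed in no comparison of ages, with contrasts between -0.04 for Idua and 0.12 for Gla.

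Sulfatases strip sulfate from glycosaminoglycans and sulfatides. Between 2 and 6 months 5 members changed, 1 up and 4 down, while 8.76% of genes passed (4.07% higher, 4.69% lower). Those that fell were Glb1, the sulfatases Arsb and Ids, and Smpd1. Arsb, which acts on dermatan sulfate, fell by 0.46 ± 0.12 (adjusted p = 0.0185) and rose by 0.51 ± 0.12 from 6 to 12 months (adjusted p = 0.0223). The 2-month libraries of Arsb spanned 22.1 to 25.2 CPM, those of 6 months 13.7 to 21.6 CPM and those of 12 months 17.7 to 28.9 CPM. All of 6 months lay below all of 2 months. Ids, the iduronate sulfatase, fell by 0.70 ± 0.22 (adjusted p = 0.0457), with 2-month libraries of 75.7 to 131 CPM and 6-month libraries of 27.8 to 98.0 CPM. The 6-month libraries of Ids fell apart by sex, with 76.1, 89.4 and 98.0 CPM in males and 30.8, 27.8 and 43.3 CPM in females. Without the 3 female libraries of 6 months the step of Ids was -0.132 (adjusted p = 0.902) and that of Arsb -0.393 (adjusted p = 0.315). The lowest library of Ids outside that group, at 49.8 CPM, was 12-month male replicate 1, which also had few counts in longer genes. Leaving out 1 library ended the call of Ids in 18 of 30 fits and that of Arsb in 4, the latter each time without a female library of 2 or 6 months. The rise of Arsb from 6 to 12 months was lost without 6-month female replicate 4 or 5 and without 12-month replicate 3 or 6. Galns, Arsa and Sgsh had contrasts of 0.04, 0.06 and -0.05.

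Between 12 and 18 months 4 members fell and none rose (13.2% of genes passed, 6.48% higher and 6.73% lower). They were Arsa by 0.42 ± 0.10 (adjusted p = 0.00694), Npc2 by 0.40 ± 0.09 (adjusted p = 0.00509), Hexa by 0.32 ± 0.08 (adjusted p = 0.0114) and Grn by 0.24 ± 0.08 (adjusted p = 0.038). Npc2, the soluble partner of Npc1 in cholesterol export, had 167 to 215 CPM at 12 and 117 to 150 CPM at 18 months, without overlap. Arsa, the cerebroside sulfatase, had 53.6 to 66.6 CPM at 12 and 34.3 to 53.8 CPM at 18 months. The fall of Grn was lost in 7 of 30 fits without 1 library (12-month replicates 1, 3 and 4, and 18-month replicates 3 to 6). With the share of reads outside genes as a covariate 0 members passed this step, and 18 genes in all did. The 4 genes then differed in size: Arsa was at -0.477 (adjusted p = 0.236) and Hexa at -0.197 (adjusted p = 0.709), while Npc2 was at -0.147 (adjusted p = 0.83) and Grn at -0.0913 (adjusted p = 0.902). Arsa still fell when the share of longer genes was a covariate, by 0.467, and Npc2 was at -0.167 (adjusted p = 0.155). Reads outside genes were 6.03 ± 0.676% at 12 months.

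Of the proteins that handle lipids, Lipa, the lysosomal acid lipase that frees cholesterol and fatty acids (ENSMUSG00000024781.15, chromosome 19, 34492318 to 34527474), passed the contrast. Its lowest, median and highest library had 220, 235 and 251 CPM at 2 months and 219, 253 and 288 CPM at 6 months. It had 142, 182 and 209 CPM at 12 months, 148, 178 and 198 CPM at 18 months and 170, 205 and 251 CPM at 24 months. The 2-month libraries were nearly as high as those of 6 months, and every 12-month library was below every 6-month library. The contrast was 0.25 ± 0.06 (adjusted p = 0.0142). The fall from 6 to 12 months was 0.48 ± 0.10 (adjusted p = 0.00604; 1.89% of genes passed this step, 0.677% higher and 1.21% lower), while the steps from 2 to 6 and from 18 to 24 months, 0.11 and 0.29, did not pass (adjusted p = 0.501 and 0.129). Without the 18-month libraries the contrast of Lipa was 0.177 (adjusted p = 0.132), and without the 6-month females 0.221 (adjusted p = 0.2). Within females it was 0.26 ± 0.09 and within males 0.25 ± 0.09 (edgeR, adjusted p = 0.035 and 0.357). With the share of longer genes as a covariate it was 0.234 (adjusted p = 0.0708), and Laptm4a still passed at 0.264. With the microglia marker score as a covariate Laptm4a (0.412) and Lipa (0.246) both passed. Smpd1, acid sphingomyelinase, fell by 0.28 ± 0.08 from 2 to 6 months (adjusted p = 0.0369), from 146 to 161 CPM to 112 to 146 CPM, a call lost in 13 of 30 fits without 1 library. Acid ceramidase Asah1 and the thioesterase Ppt1 had contrasts of 0.04 each and passed in no comparison of ages.

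Grn encodes progranulin, which is secreted, taken up and cleaved into granulins in the lysosome (ENSMUSG00000034708.11, chromosome 11, 102430315 to 102437048). Its lowest, median and highest library had 264, 276 and 301 CPM at 2 months, 220, 260 and 283 CPM at 6 months, and 196, 222 and 252 CPM at 12 months. At 18 months it had 164, 192 and 211 CPM and at 24 months 221, 241 and 255 CPM. The medians went down to 18 months and were higher again at 24 months, where every library was above all of 18 months and below all of 2 months. In the regression on age with sex as a covariate, the analysis the study's design states, Grn was the only member that passed: it fell by 0.33 ± 0.10 over the 22 months (adjusted p = 0.0246), while 10.9% of genes passed, 5.72% higher and 5.22% lower. From 18 to 24 months Grn rose by 0.34 ± 0.08 (adjusted p = 0.0279), a call lost without any 1 of the 18-month females or of 24-month replicates 1, 2, 4 and 5. With the share of reads outside genes as a covariate the slope was -0.114 (adjusted p = 0.712), without the 18-month libraries -0.218 (adjusted p = 0.149), and it no longer passed without 2-month female replicate 4. Over the 35 members slopes ranged from -0.411 for Ctsl to 0.487 for Galns, 14 above and 21 below 0, with a median of -0.0269.

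Tfeb itself (ENSMUSG00000023990.18, chromosome 17, 47737030 to 47792419) had a lowest, median and highest library of 88.8, 100.1 and 123 CPM at 2 months, 68.7, 91.3 and 104 CPM at 6 months, and 77.3, 104 and 112 CPM at 12 months. At 18 months it had 71.3, 84.3 and 104 CPM and at 24 months 78.9, 89.2 and 117 CPM. All pairs of ages compared overlapped. The contrast was -0.08 ± 0.07 (adjusted p = 0.575) and the slope -0.16 ± 0.10 (adjusted p = 0.311). As background, TFEB is regulated mainly by phosphorylation and by its place in the cell, which were not measured.

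**Figure D4:**
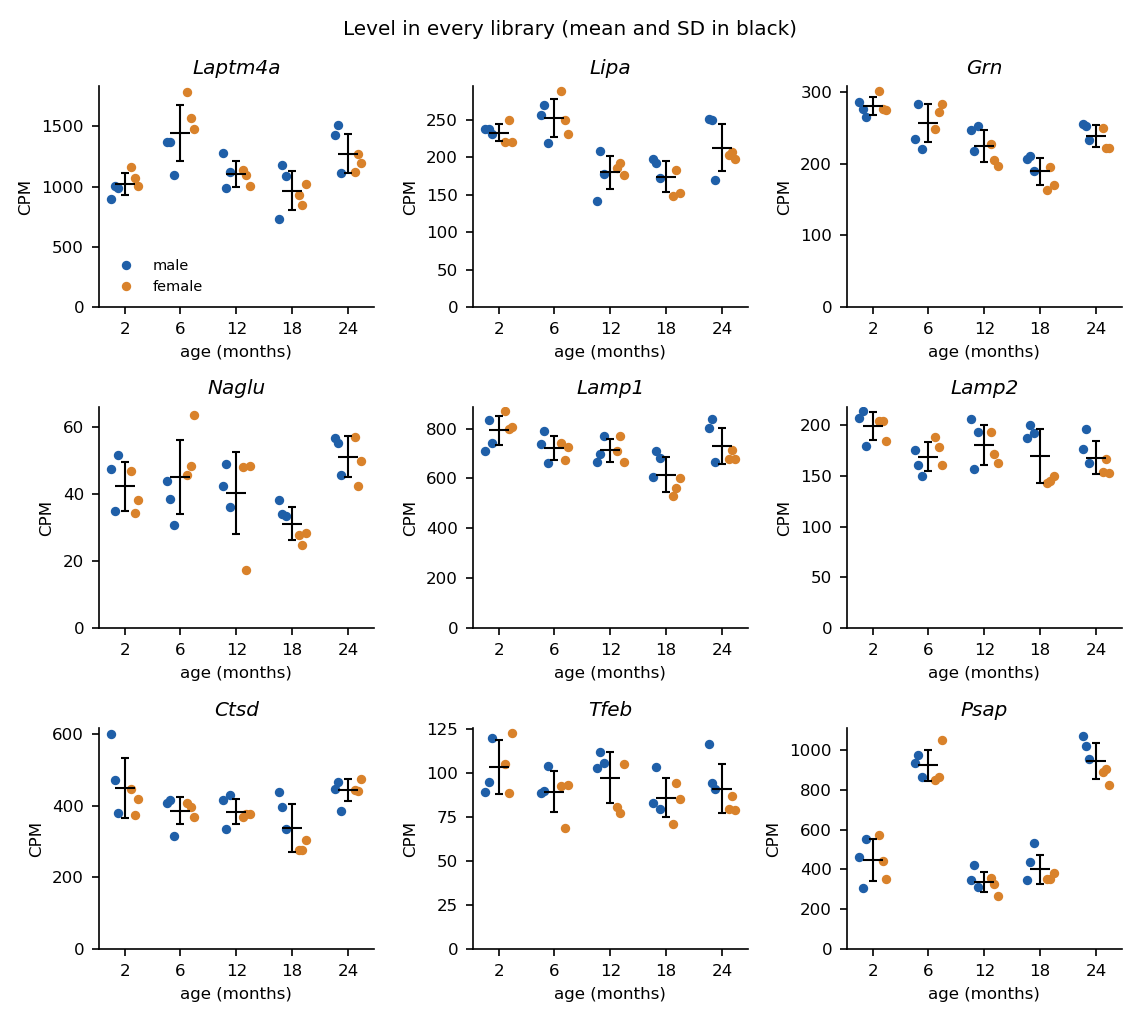
Level in CPM (vertical axis, from 0) by age in months for 8 members and Psap, which is not a member, in every library, males blue and females orange, with the mean and SD in black. Laptm4a is highest at 6 and 24 months with overlap, Grn is lowest at 18 months, and Psap lies between 825 and 1071 CPM at 6 and 24 months and between 268 and 575 CPM at the other ages.

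The difference between females and males over all ages passed in 0 of 35 members by edgeR (0.101% of genes, 0.0594% higher and 0.0416% lower in females), with 5 members (7.81% of genes) at an unadjusted p under 0.05 and 0 passing with DESeq2. In 29 of 35 members the estimate was lower in females, with a median of -0.0565 against -0.0167 over all genes, of which 45.5% were higher in females. The slope on age differed between the sexes in 0 members and 0 genes, with 3 members (5.44% of genes) at an unadjusted p under 0.05 and 0 members with DESeq2. The contrast of 6 and 24 months with the other ages differed between the sexes in 3 members, higher in females for Ctsl and Ctsz and lower for Ids, while 6.2% of genes passed (1.83% higher, 4.37% lower).

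Ctsl was higher in females at 6 months, with 389, 423 and 324 CPM against 250, 231 and 202 CPM in males, and lower at 18 months, with 156, 142 and 140 CPM against 263, 236 and 214 CPM. The sexes did not overlap at either age. Its contrast was 0.49 ± 0.09 within females and -0.20 ± 0.09 within males, a difference of 0.69 ± 0.13 (adjusted p = 0.00345). Ctsz followed the same order at 6 months, with 244 to 264 CPM in females and 169 to 214 CPM in males, and its difference was 0.35 ± 0.10 (adjusted p = 0.0433), which 19 of 30 fits that each left out 1 library did not keep. Ids went the other way, with a contrast of -0.82 ± 0.15 within females and 0.06 ± 0.14 within males, a difference of -0.88 ± 0.20 (adjusted p = 0.0119).

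Within females 11 members were higher and 1 lower at 6 and 24 months (19.9% of genes passed, 8.87% higher and 11% lower), and within males 0 passed by edgeR (0.439% of genes, 0.38% higher and 0.0594% lower; 5 members and 8.1% of genes at an unadjusted p under 0.05, and 0 members with the male libraries fitted alone). Those in females were Scarb2, Laptm4a, Ctsd, Ctsl, Ctsz, Hexa, Gaa, Naglu, Npc2, Lipa and Grn as higher and Ids as lower. The test of the difference between the sexes passed for Ctsl, Ctsz and Ids alone among the 35; with DESeq2 it passed for 5, Scarb2 and Hexa being added. The 3 female libraries of 6 months are among the 4 with the lowest share of counts in longer genes. With that share as a covariate 1 member was higher and 1 lower within females, 1 was higher within males, and the difference between the sexes passed in 0 members; 5.91% of genes passed within females and 0.701% within males. Within females 6 members were higher and 1 lower with no filter on low counts, with reads outside genes as a covariate, and with the microglia marker score as a covariate (8.82, 19.5 and 13.8% of genes passed). With the share of counts in longer genes as a covariate the differences between the sexes were 0.295 for Ctsl, 0.132 for Ctsz and -0.318 for Ids. At 6 months erythroid markers summed to 2030, 2731 and 1230 CPM in females and to 1449, 999.7 and 792.6 CPM in males. Choroid plexus markers summed to 3508, 5359 and 1109 CPM in those females and to 895.3, 393.7 and 391.9 CPM in those males. The part of these markers' cells in the contrast was not tested. Sex at 6 months and the make-up of the 3 female libraries cannot be told apart.

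**Figure D5:**
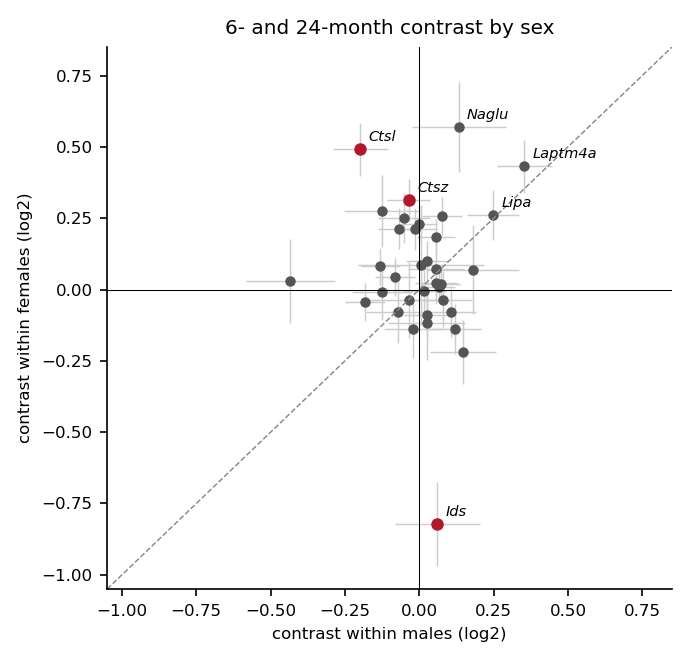
Difference between 6 and 24 months and the other ages within males (horizontal, log2) and within females (vertical, log2) for the 35 genes, with grey lines for the SE, a dashed line of equality and red for a difference between the sexes with adjusted p under 0.05. Ctsl at 0.49 in females and -0.20 in males and Ids at -0.82 and 0.06 lie farthest from the line.

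Psap is not a member but the precursor of the saposins, which help glycosidases and sphingolipid hydrolases reach their lipids, and it was set apart by its level at 6 and 24 months. It was singled out after its values were seen. Its lowest, median and highest library had 308, 453 and 575 CPM at 2 months, 848, 900.1 and 1050 CPM at 6 months, and 268, 336 and 421 CPM at 12 months. At 18 months it had 347, 369 and 531 CPM and at 24 months 825, 931 and 1071 CPM. All 12 libraries of 6 and 24 months were above all 18 of the other ages. The contrast was 1.25 ± 0.08 (edgeR, adjusted p = 6.7e-12), rank 3 by p of all genes tested, with 1.26 ± 0.11 within females and 1.24 ± 0.11 within males. Leaving out each library in turn moved it between 1.22 and 1.28.

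Other genes of the lysosome and its regulation were taken from 6 lists by function, and their counts stand beside the 2.75% higher and 2.92% lower of all genes in the contrast and the 5.72% and 5.22% by slope. Psap apart, their calls are given for the reported fit alone and not for the alternatives. Within males 1 hydrolase or activator was higher in the contrast and 0 genes of the other lists passed (0.38% of genes higher, 0.0594% lower). Of 26 other hydrolases and activators 2 were higher and 0 lower in the contrast, Psap and the nuclease gene Dnase2a (0.30 ± 0.08, adjusted p = 0.0142). By slope 0 were higher, and the cathepsin Ctsh was lower at -0.48 ± 0.09 (adjusted p = 0.00127). Of 19 tested membrane proteins 0 were higher and 1 lower in the contrast, Tmem106b at -0.48 ± 0.09 (adjusted p = 0.00168), and 0 passed by slope. Of 19 subunits of the proton pump that acidifies the lysosome 1 was higher in the contrast, Atp6v0e2 (0.32 ± 0.08, adjusted p = 0.0116), and 2 fell with age, among them Atp6ap2 at -0.32 ± 0.09 (adjusted p = 0.0154).

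Of 17 genes for delivery to the lysosome 3 were lower in the contrast and 0 higher, among them the retromer subunit Vps35 at -0.29 ± 0.07 (adjusted p = 0.0214) and the adaptor subunit Ap1g1 at -0.36 ± 0.10 (adjusted p = 0.0281). Within females 6 of the 17 were lower and 1 higher (11% and 8.87% of genes), and within males 0 passed. The contrast differed between the sexes in 2 of the 17, both lower in females (4.37% of genes). By slope 2 fell, the mannose phosphate receptor gene M6pr at -0.30 ± 0.08 (adjusted p = 0.0119) and Ap1m1 at -0.31 ± 0.09 (adjusted p = 0.0208). Of 22 tested relatives of TFEB and regulators of mTORC1 1 was higher, the GTPase gene Rraga (0.93 ± 0.16, adjusted p = 6.2e-04), and 1 lower, Mtor (-0.36 ± 0.10, adjusted p = 0.0404). Rraga averaged 22.0 CPM at 2, 72.3 at 6, 23.3 at 12, 26.7 at 18 and 30.3 CPM at 24 months, so that its high level was at 6 months. By slope 3 of the 22 rose, among them its relative Rragb (1.14 ± 0.22, adjusted p = 7.26e-04) and the phosphatase subunit Ppp3cb (0.53 ± 0.13, adjusted p = 0.00687). Of 27 autophagy genes 1 was higher in the contrast, Gabarapl1 (0.25 ± 0.07, adjusted p = 0.0312). By slope Optn rose (0.44 ± 0.12, adjusted p = 0.0196) and Atg5 fell by 0.31 ± 0.10 (adjusted p = 0.0333).

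Across the 30 libraries the members moved together only in part. The median Pearson correlation over the 595 pairs of members was 0.175, with a range from -0.709 to 0.854 and 84 pairs above 0.5. These are descriptions over libraries that share ages, sexes and library make-up. Smpd1 (0.849), Lamp1 (0.777) and Grn (0.775) followed the mean of the other members most closely, and Npc1 (-0.427), Ppt1 (-0.259) and Mcoln1 (-0.224) ran against it. The non-members closest to the mean of the 35 were Ppp2r1a (0.84), Slc48a1 (0.792), Plbd2 (0.786), Maged1 (0.782) and Mgat4b (0.778).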

How the data were processed

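RNA was measured in 30 libraries of primary mouse brain endothelial cells. Per the labels' protocols, SMART-Seq v4 cDNA was tagmented with Nextera XT, which keeps no strand and adds no molecular identifiers, so PCR copies are counted. Tools listed in the submitters' processing notes are STAR 2.5.2b, FastQC 0.11.4, HTSeq and MultiQC, with builds GRCm38 and mm10. The authors deposited whole-number read counts per gene, not normalized, with 3 count columns per file. Counts regardless of strand were taken, because the first strand held 49.68 to 50.01% of stranded counts. The 4 summary lines without a gene entered neither library sizes nor tests. They held 2.505 to 6.258% unmapped reads, 8.637 to 13.28% at several places, 3.82 to 13.06% outside genes and 3.613 to 4.209% over several genes.

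Of 48795 identifiers 48349 matched a gene name table and 48435 GENCODE M21 (GRCm38), which gave coordinates (1-based) and merged exon lengths. In R 4.3.3, edgeR 4.0.16 was used with filterByExpr by age (minimum count 10, total 15; 16844 genes kept), TMM scaling, robust quasi-likelihood fits to all 30 libraries, and Benjamini-Hochberg adjustment over all genes tested with a threshold of 0.05. Slopes are per 22 months. Age was a number for slopes and a factor for contrasts, with sex as a covariate. Differences between the sexes came from a fit with 1 mean for each age and sex. An SE was derived from its F statistic. CPM uses TMM-scaled library sizes; log2 CPM has a prior count of 2. A count of 0 allowed up to 3 counts, 0.0594 to 0.124 CPM by library, for counting error only. Replicates of a group were compared in 75 pairs by chi-square per degree of freedom (15.17 to 188.7), and none were alike within sampling noise. The scripts were tested on simulated data. Alternatives were DESeq2 1.42.0, RLE scaling, no filter, 3 covariates, each sex alone, and leaving out libraries.

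Members and lists were chosen with earlier results of these data known. Named in full were members passing the contrast or the slope, and Tfeb, Lamp1, Lamp2 and Ctsd; from each other list, at most the 4 genes with the smallest p; and the 5 genes most like the members' mean. The slope result of 1 gene of the other lists is not reported here.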

Additional observations from a re-analysis of the deposited data

Results flagged for a closer look

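Ctsd in 24-month male replicate 3 was at 386 CPM, apart from the other 5 libraries of that age at 442 to 475 CPM. The gap was large for a group of 6, and 35 groups were examined, of which chance sets apart about 1 in 20 groups. Not every member was examined at every age, and other groups held a library apart too. Glb1 was at 73.0 CPM in 6-month female replicate 6 and at 48.9 to 54.6 CPM in the rest of that age. Neu1 was at 30.3 CPM in 6-month female replicate 5 and at 45.6 to 50.3 CPM in the rest. The contrast of 6 and 24 months with the other ages differed between females and males in 3 members by the test of the difference itself, on the log2 scale as female minus male. It was 0.69 for Ctsl, 0.349 for Ctsz and -0.883 for Ids. All 3 lost the call with the share of counts in longer genes as a covariate, at 0.295 (adjusted p = 0.164), 0.132 (adjusted p = 0.649) and -0.318 (adjusted p = 0.381), an alternative chosen after seeing the data.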

How the results depend on the processing

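Counts of members passing are given as alternatives against the values reported, and no gene that passed changed direction under any alternative. The share of all genes that passed is not given with these counts. A count that differs from the reported one is therefore not a result about these members. RLE scaling gave the reported count in each comparison. With DESeq2 the counts were 4 for the contrast, 6 for 6 against 2, 3 for 12 against 6 and 6 for 18 against 12 months. They were 9 for 24 against 18 months, 3 for 24 against 2 months and 5 for the difference between the sexes. With no filter they were 2 for 6 against 2, 1 for 12 against 6 and 3 for 18 against 12 months. They were 0 for 24 against 18 months, 0 for 24 against 2 months and 2 for the difference between the sexes. With reads outside genes as a covariate 0 passed for the slope, 18 against 12 and 24 against 18 months, and 3 for 12 against 6 months. At 24 against 2 months Laptm4a passed in place of Glb1. With the microglia marker score as a covariate 6 passed for 6 against 2, 6 for 18 against 12 months and 2 for the difference between the sexes. At 24 against 18 months Ctsd then passed in place of Naglu. With the share of longer genes as a covariate 0 passed for the slope, 24 against 18 months and the difference between the sexes. The counts were then 3 for 18 against 12 and 4 for 24 against 2 months. The members that passed also changed with that covariate. For 6 against 2 months Laptm4a, Arsb and Ids were lost and Lamp2, Ctsa and Ctsd gained. For 18 against 12 months Hexa, Npc2 and Grn were lost and Ctsa (higher) and Ids (lower) gained. The contrast lost Lipa and gained Lamp2 (lower). Without the 6-month females the counts were 0 for the contrast, 1 for 6 against 2 and 0 for 12 against 6 months. They were 5 for 18 against 12, 6 for 24 against 18 and 3 for 24 against 2 months. In males alone 0 passed for the slope and 0 for the contrast, in females alone 0 and 12, and without the 18-month libraries (chosen after seeing the data) 0 and 1. The cause was not tested. Leaving out each library in turn gave 0 to 2 members for the slope, 2 to 5 for the contrast, 1 to 5 for 6 against 2, 1 to 3 for 12 against 6, 3 to 6 for 18 against 12, 0 to 7 for 24 against 18, 0 to 2 for 24 against 2 months and 2 to 4 for the difference between the sexes, the last chosen after seeing the data. For single genes that passed, 108 values kept the call under the other alternatives and 52 lost it, all in the reported direction. The contrast kept Laptm4a and Lipa in all 30 of these fits. The shape count stayed at 7 with medians or RLE scaling. No paired analysis was possible because replicate numbers were given in accession order within an age, and no label ties a library of one age to one of another.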
